A study of Mus musculus with 30 samples.

Results

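Amino acid transporters are the membrane proteins of the solute carrier (SLC) families that move amino acids and related small molecules between a cell and its surroundings. The genes were chosen by name, as every array gene of the families Slc1, Slc3, Slc6, Slc7, Slc36, Slc38 and Slc43 other than Slc6a6, Slc6a12 and Slc38a2. This gave 48 genes of 21689 named on the array, read by 77 of 33453 named probes. The Slc6 family gave 15 genes, Slc7 gave 13, Slc1 gave 7, Slc36 and Slc38 gave 4 each, Slc43 gave 3 and Slc3 gave 2.

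The cells were immortalised mouse embryonic fibroblasts (MEFs) in exponential growth, either wild type or p38α-/-, which lack the stress-activated kinase p38α. Wild type MEFs received 25 ng/ml anisomycin for 45 min, 100 ng/ml TNFα for 45 min, or 100 mM NaCl for 45 min, 2 h or 8 h. Anisomycin inhibits translation, TNFα is an inflammatory cytokine and added NaCl is an osmotic stress. The same 5 treatments were also given after 10 µM of the p38 inhibitor SB203580, added 30 min ahead, and 1 group received SB203580 alone. The array titles give 10 mM and 2 h for the inhibitor, and this difference from the treatment protocol was not resolved. Of the p38α-/- MEFs, 1 group was left untreated and the others had anisomycin or TNFα for 45 min, or NaCl for 2 h, at the same doses. Each of the 15 groups had 2 arrays, from independent experiments. On every array the Cy5 dye marked the sample and the Cy3 dye marked a single pool of 2 untreated wild type MEF cultures, with no dye swap. Values are log2 ratios of sample to pool, so 1 is a 2-fold difference. Because the pool is the only untreated wild type sample, a test against it leaves out the spread between untreated cultures, and a dye bias or a peculiarity of the pool would stand in every group. The p38α-/- MEFs are another immortalised line, so genotype and line cannot be told apart.

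Cells take up amino acids through transporters that differ in their substrates and driving ions. Slc1 proteins carry glutamate, aspartate or small neutral amino acids together with sodium. Slc38 proteins carry small neutral amino acids with sodium, and cells under hypertonic stress are known to accumulate such amino acids as compatible osmolytes. Slc7 light chains exchange amino acids as partners of the heavy chains Slc3a1 and Slc3a2. Slc43 proteins carry large neutral amino acids, Slc36 proteins are coupled to protons, and the Slc6 family also holds carriers of creatine, monoamines and the transmitter glycine.

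The arrays differed in quality more than in overall signal. Median processed signals lay between 832 and 1870 in Cy5 and between 846 and 1954 in Cy3. The share of spots flagged as outliers lay between 6.78% and 44.8%, and the highest share was on NaCl 45 min replicate 2. The p38α gene Mapk14 checked the labels. With flagged spots kept, it was higher than the pool on all 22 wild type arrays (0.03 to 1.31) and lower on all 8 p38α-/- arrays (-2.24 to -0.94). With them left out, 16 wild type and 6 p38α-/- arrays measured it, with the same signs. All 10 fibroblast markers, Col1a1 and Vim among them, were well above background on all 30 arrays, but so were the macrophage, epithelial and neural markers and part of the endothelial ones, at lower median signals, so this mark did not separate expressed from silent genes. Of the 77 transporter probes, 60 were well above background in both channels on all 30 arrays, and 2 were in neither channel on any array. One of these is the only probe of the glycine transporter Slc6a5, which was therefore not well above background in any sample, and the other is a probe of Slc6a14. Outlier flags removed 17.2% of the 2310 transporter values. As a result 24 of the 48 genes were tested in all 15 groups, and the light chain Slc7a5 in none.

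Against the pool, 98 of 581 tests over the 15 groups passed (limma, adjusted p under 0.05 over all genes), 39 higher and 59 lower, in 25 different genes. This was 16.9% of the tests, against 14.7% of the tests over all genes in the same groups. Between 2 and 11 genes were called in a group, of 32 to 45 tested. The median of the transporters stayed between -0.02 and 0.07 in every group.

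**Figure D1:**
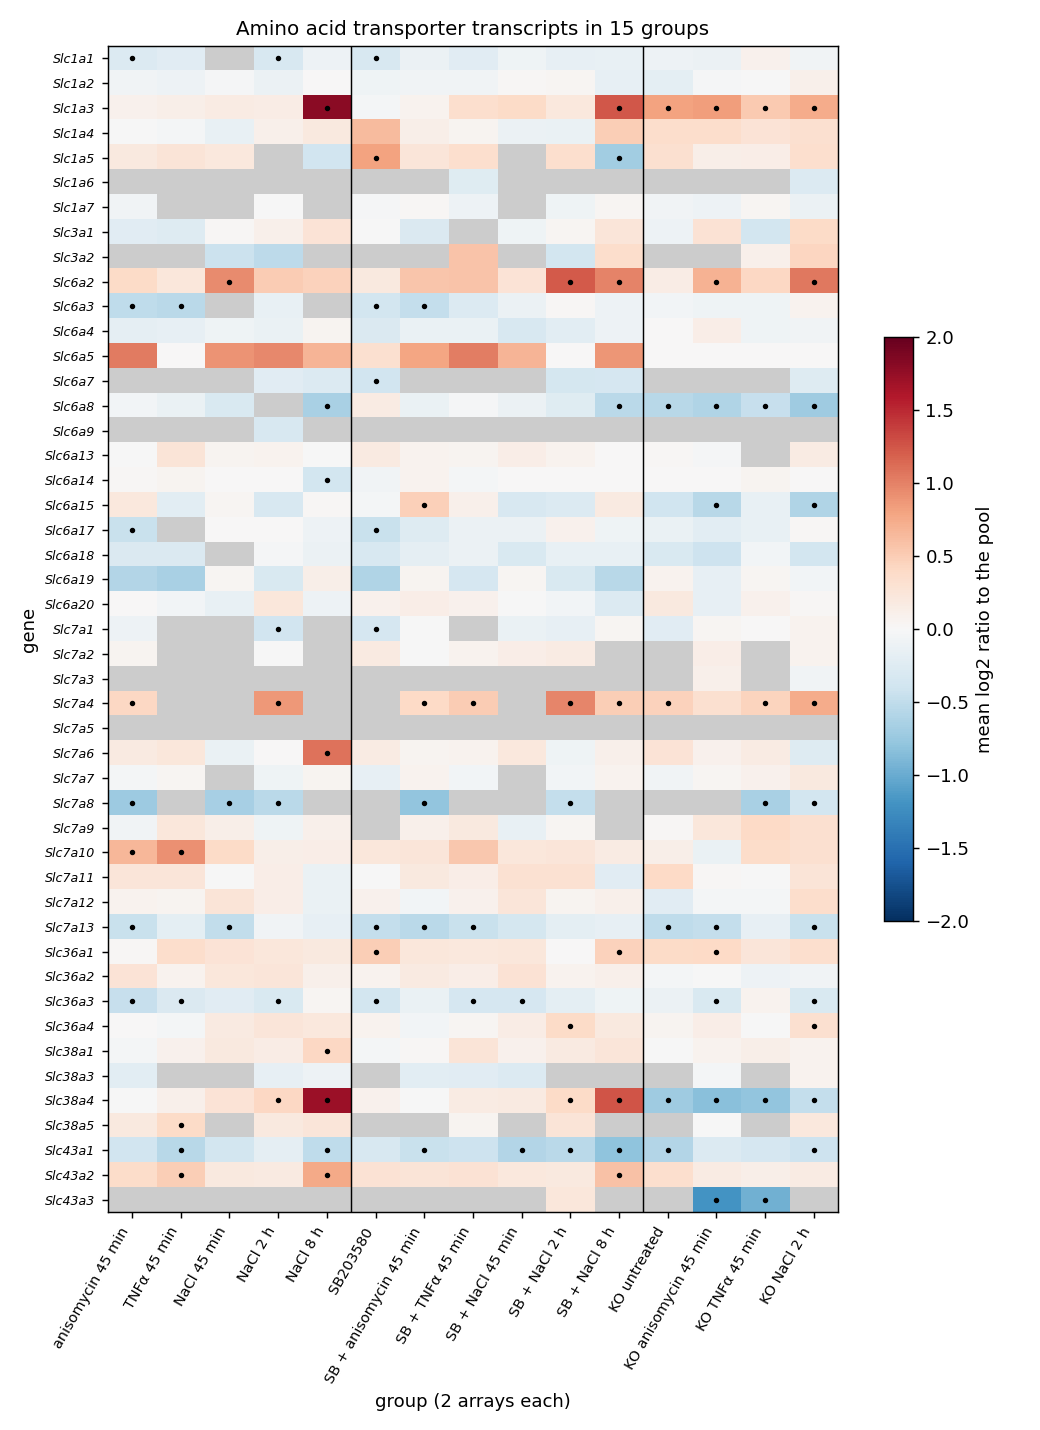
Mean log2 ratio to the pool of 47 of the 48 genes (rows) in the 15 groups (columns, 2 arrays each); grey marks genes not measured on both arrays and a dot marks an adjusted p under 0.05. Slc1a3 and Slc38a4 in NaCl 8 h are the darkest red cells, at 1.81 and 1.71, and Slc38a4 is blue in all 4 p38α-/- groups (KO).

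A small set of transporters differed from the pool after prolonged osmotic stress. No group of untreated wild type MEFs was matched to 8 h. NaCl and time in culture therefore cannot be told apart, here or in the difference from 2 h. After 8 h in NaCl, 5 genes were higher than in the pool and 3 lower, of 36 tested. This was 22.2% of the transporters and 22.2% of all genes tested. Slc1a3, a sodium-dependent glutamate and aspartate transporter, read 1.68 and 1.93 on the 2 arrays and was higher by 1.81 (SE 0.13, 3.50-fold, limma adjusted p = 6.62e-08). Slc38a4, a sodium-coupled carrier of small neutral and cationic amino acids, read 1.67 and 1.75 and was higher by 1.71 (SE 0.10, 3.28-fold, adjusted p = 3.71e-09). No other transporter passed the 2.5-fold mean used in the study, in this or any other group, against 1.69% of all genes in NaCl 8 h.

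The exchanger light chain Slc7a6, a partner of Slc3a2 that takes up neutral amino acids in exchange for cationic ones, read 0.86 and 1.29 and was higher by 1.08 (SE 0.17, adjusted p = 0.000167). Slc43a2, a facilitative carrier of large neutral amino acids, read 0.99 and 0.53 and was higher by 0.76 (SE 0.12, adjusted p = 0.000194). Slc38a1, a sodium-coupled glutamine transporter, was higher by 0.41 (SE 0.10, adjusted p = 0.00455). The lower genes were the creatine transporter Slc6a8 (-0.64), the large neutral amino acid carrier Slc43a1 (-0.51) and Slc6a14 (-0.36). The value of Slc6a14 rested on the probe named above that was in neither channel well above background on any array, and on 1 array, at -0.73, while the other read 0.00, so it is counted here but gives no direction.

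The rise was tested between 2 h and 8 h. In the difference between these times, in which the pool cancels, 4 of 34 transporters were called, all higher at 8 h, against 7.81% of all genes. Slc1a3 rose by 1.66 (SE 0.19, adjusted p = 4.63e-05), Slc38a4 by 1.30 (SE 0.14, adjusted p = 1.96e-05), Slc7a6 by 1.06 (SE 0.24, adjusted p = 0.00974) and Slc43a2 by 0.58 (SE 0.17, adjusted p = 0.0449). The call of Slc43a2 was lost on leaving out either NaCl 2 h array or NaCl 8 h replicate 1 (adjusted p 0.0720 to 0.428), and that of Slc7a6 on leaving out replicate 2 of NaCl 2 h or of NaCl 8 h (0.141 and 0.114). Between 45 min and 2 h, 0 of 30 were called, 1 had an unadjusted p under 0.05, and 0.0540% of all genes were called.

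The probes of a gene did not always move alike. For Slc1a3, the probe for the RefSeq transcript (A_51_P268697) read 0.66 and 0.57 at 45 min, 0.62 and 0.08 at 2 h, and 2.94 and 3.71 at 8 h. Its other probe, for a cDNA clone (A_52_P378975), read 0.42 and 0.15 at 8 h, and only the first probe was called for the rise from 2 h (2.98, SE 0.36, adjusted p = 6.96e-05; the other 0.34, adjusted p = 0.709). On the first probe both 8 h arrays lay above every other wild type array, the next being the SB203580 and NaCl 8 h arrays at 2.66 and 1.93. On the second the 8 h values overlapped those of other groups.

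Both probes of Slc38a4 rose from 2 h to 8 h. One probe (A_52_P48569) read 0.44 and 0.49 at 45 min, 1.29 and 0.99 at 2 h, and 2.35 and 2.89 at 8 h. The other (A_52_P12403) read -0.24 and -0.40 at 2 h and 1.00 and 0.61 at 8 h. Their rises were 1.48 (SE 0.24, adjusted p = 0.000821) and 1.13 (SE 0.17, adjusted p = 0.000512). From 45 min to 2 h the first probe differed by 0.68 (SE 0.24, adjusted p = 0.50). At 2 h the first was above the pool and the second below it, so the call of Slc38a4 at 2 h against the pool (0.41) rested on 1 probe.

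For Slc7a6, both probes for the RefSeq transcript were high at 8 h, at 1.09 and 1.50 and at 1.25 and 2.04. The cDNA clone probe read lower, at 0.25 and 0.35, but it had read -0.04 and -0.99 at 2 h. Its rise was 0.82 (SE 0.44, limma adjusted p = 0.349), and that of the first RefSeq probe 0.77 (SE 0.21, adjusted p = 0.0317). For Slc43a2, the RefSeq probe read 1.60 and 1.47 at 8 h, the second of these flagged as an outlier and left out, and 0.48 and -0.03 at 2 h. The cDNA clone probe of Slc43a2 read 0.38 and 0.53 at 8 h and 0.14 and 0.13 at 2 h. One probe of Slc38a1 read 0.75 and 0.77 at 8 h against 0.21 and 0.20 at 2 h, a rise of 0.56 (SE 0.12, adjusted p = 0.0102 over all probes), and the gene mean did not pass. Another probe for the same RefSeq transcript read 0.14 and 0.21 at 8 h and differed by -0.10 (limma adjusted p = 0.877). The cDNA clone probe read 0.09 and -0.16 at 8 h, the second flagged and left out. The call of Slc38a1 at 8 h against the pool thus rested mostly on the first probe.

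**Figure D2:**
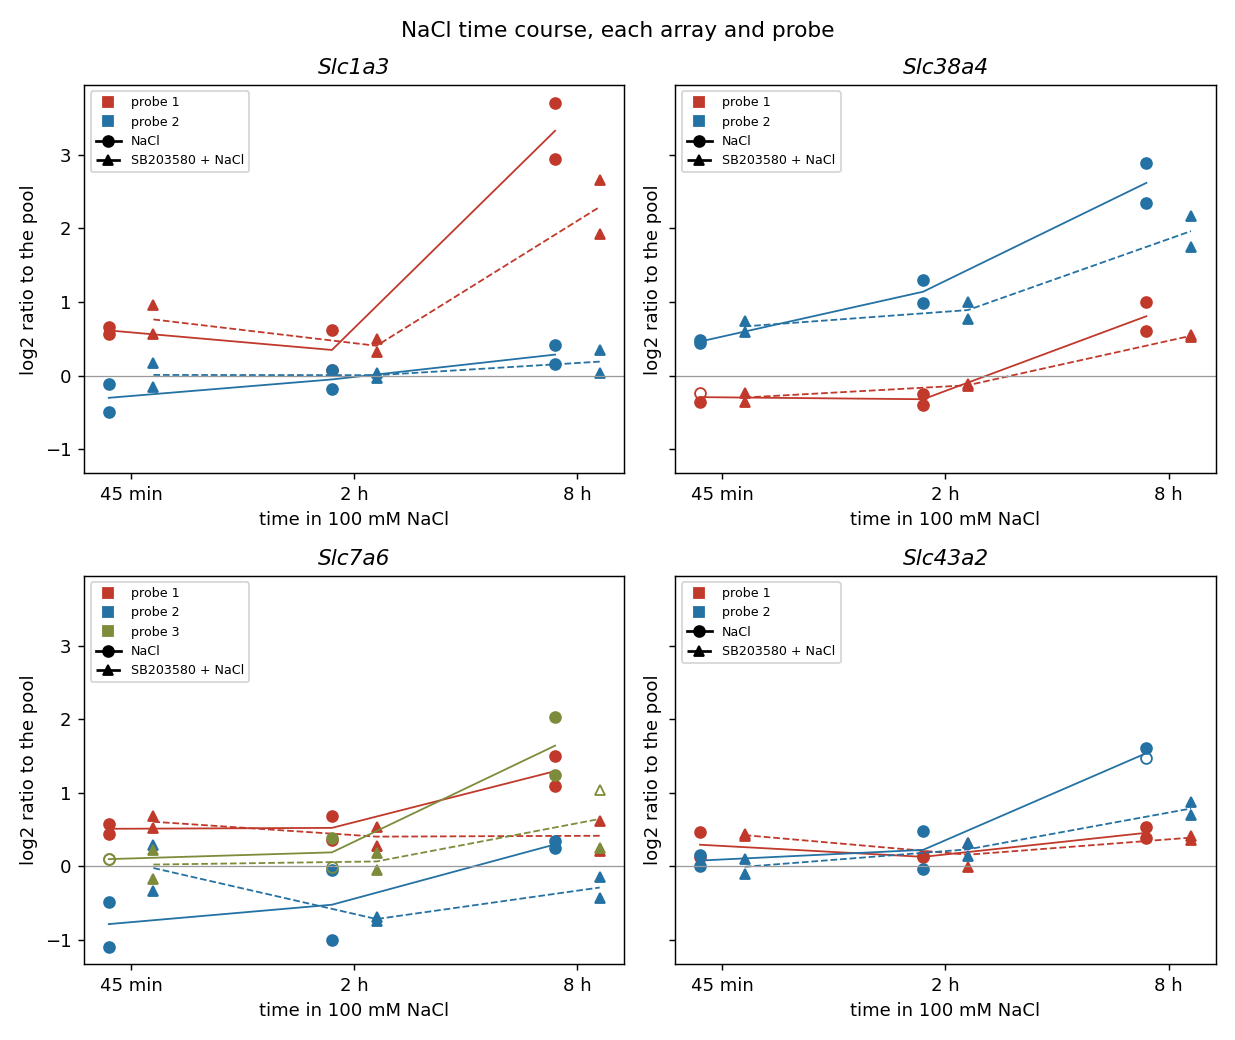
Log2 ratio to the pool (y axis) of each probe of 4 transporters at 45 min, 2 h and 8 h in 100 mM NaCl (x axis), without (circles, solid lines through the means) and with SB203580 (triangles, dashed lines); each point is 1 array and open points were flagged as outliers. Probe 1 of Slc1a3 reached 2.94 and 3.71 at 8 h without the inhibitor and 1.93 and 2.66 with it, while probe 2 stayed under 0.5.

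Promoter sequence was available for 31 of the 48 genes, as RefSeq windows (GRCm38.p6) from 250 bases before to 50 after each annotated start. The search was for letters only, on both strands, and a match is not evidence of binding. The tonicity-responsive element, the site of the osmotic stress factor Nfat5, was added after the data were seen. It lay in windows of 5.74% of all genes and of 4 of the 31 transporters. Of the 8 genes called in NaCl 8 h, those with a window were Slc1a3, Slc38a4, Slc7a6, Slc43a2, Slc43a1 and Slc6a14, and of them Slc38a4 held it. The other transporters with it, Slc36a3, Slc6a13 and Slc6a17, were not called in NaCl 8 h. The stretches are shown because Slc38a4 was called at 8 h on both probes, with the match in capitals and the letters reading along the gene's minus strand. The first lies at chr15:97056057-97056086 and the second, which also matches on the opposite strand 1 base along, at chr15:97055947-97055976.
Slc38a4 first match: gactccaccTGGAAAGATGTttctgttgac
Slc38a4 second match: atcacaggaTGGAAATTTCCactctttggg

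The composite site of C/EBP and ATF factors, TGATGNAA, is one through which amino acid shortage is known to act. It lay in windows of 4.51% of all genes and of 3 of the 31 transporters, Slc7a11, Slc7a7 and Slc1a4. None of these 3 genes was called in any group. For the cystine transporter Slc7a11, 2 such matches lay within 1 window, at chr3:50443661-50443690 and chr3:50443642-50443671 on the minus strand, the second reading in the opposite direction.
Slc7a11 first match: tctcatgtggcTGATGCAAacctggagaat
Slc7a11 second match: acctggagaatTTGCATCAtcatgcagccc
The antioxidant response element core, TGACNNNGC, lay in 12.4% of all windows and in those of 6 transporters, among them Slc7a6 and Slc43a1. The AP-1 site, TGANTCA, lay in windows of 8.97% of all genes and of 5 of the 31 transporters, namely Slc3a1, Slc6a14, Slc6a17, Slc6a5 and Slc7a1.

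In NaCl 8 h after the inhibitor, 9 of 38 transporters were called against the pool (23.7%, against 21.2% of all genes). Slc1a3 read 0.98 and 1.50 and was higher by 1.24 (SE 0.13, adjusted p = 5.83e-06), Slc38a4 read 1.16 and 1.35 and was higher by 1.25 (SE 0.10, adjusted p = 2.79e-07), and Slc43a2 was higher by 0.59 (SE 0.12, adjusted p = 0.00216). Slc6a8 (-0.55), Slc43a1 (-0.80) and the glutamine and neutral amino acid exchanger Slc1a5 (-0.69) were lower. Slc36a1, the lysosomal proton-coupled carrier (0.46), Slc6a2 (0.98) and Slc7a4 (0.49) were higher.

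From 2 h to 8 h in the presence of SB203580, 3 of 38 transporters were called, against 7.32% of all genes. These are other arrays than those without the inhibitor, and the comparison was added after the data were seen. Slc1a3 rose by 1.04 (SE 0.19, adjusted p = 0.00220) and Slc38a4 by 0.87 (SE 0.14, adjusted p = 0.000647). Slc1a5 fell by 1.02 (SE 0.22, adjusted p = 0.00802), from 0.22 and 0.45 at 2 h to -0.82 and -0.56 at 8 h. Leaving out 1 array ended the call of Slc1a3 (without SB203580 and NaCl 8 h replicate 2, adjusted p = 0.0595) and of Slc1a5 (without NaCl 2 h replicate 2 or NaCl 8 h replicate 1 of the inhibitor groups, adjusted p 0.106 and 0.0927). Without the inhibitor, Slc1a5 read 0.57 at 2 h on the only array left and -0.66 and -0.10 at 8 h, so its difference was not tested. With flagged spots kept it was, and Slc1a5 was lower at 8 h there too (-0.75, SE 0.22, adjusted p = 0.0384).

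**Figure D3:**
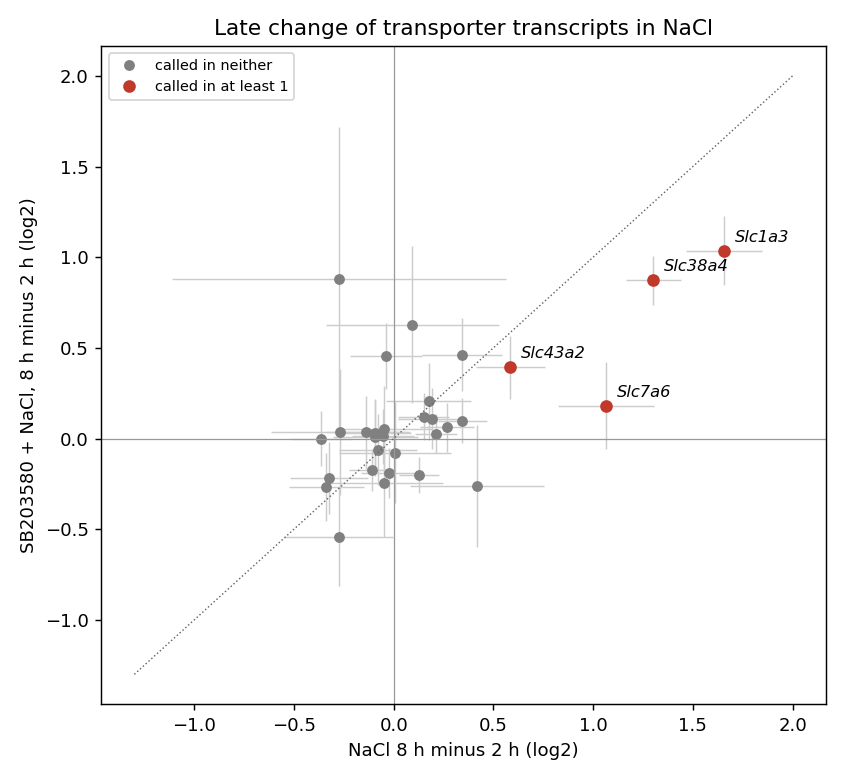
Difference between 8 h and 2 h in NaCl (log2) without (x axis) and with SB203580 (y axis), with standard errors, for the 31 transporters measured on all 8 arrays; the dotted line marks equal differences and the grey point at the top is Slc6a5, whose probe was not well above background. The 4 named genes are those called in at least 1 of the comparisons, and all 4 were called without the inhibitor. They lie to the right of the others and below the line, a position that this choice of genes favours.

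The difference made by SB203580 to each stress was not called for any transporter. In the differences between stress with and without the inhibitor, 0 of 40 passed for anisomycin, 0 of 33 for TNFα, 0 of 29 for NaCl 45 min, 0 of 40 for NaCl 2 h and 0 of 33 for NaCl 8 h. Few genes of any kind passed, at 0.0204%, 0.00%, 0.00%, 0.00% and 0.206% in this order. At an unadjusted p under 0.05 the counts were 1, 0, 1, 1 and 4. The share of all genes at that threshold is not given, so these counts show no excess. Of the 4 at NaCl 8 h, 3 were the genes that rose most, and the fourth was Slc6a14 (0.36), on its below-background probe. The values of Slc7a6 (-0.98, SE 0.24, limma adjusted p = 0.166), Slc1a3 (-0.56, SE 0.19, adjusted p = 0.523) and Slc38a4 (-0.46, SE 0.14, adjusted p = 0.358) were all below 0. Since these 3 are high in the NaCl 8 h arrays that are subtracted here, values below 0 are favoured by the choice of genes.

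The value of Slc7a6 left out a flagged spot. With SB203580 and NaCl 8 h, its RefSeq probes read 0.21 and 0.62, and 0.25 and 1.04, and the 1.04 was flagged and left out. The difference was -0.88 (SE 0.21, adjusted p = 0.152) on the RefSeq probe with no flagged value and -0.59 (SE 0.44) on the cDNA clone probe, and -0.82 (SE 0.24, adjusted p = 0.344) for the gene with flagged spots kept. With normexp background correction and loess normalization, Slc7a6 was called (-0.75, adjusted p = 0.0236).

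In SB203580 without stress 9 of 37 transporters differed from the pool (24.3%, against 26.6% of all genes). Slc1a5 (0.81) and Slc36a1 (0.50) were higher. Slc7a13 (-0.48), Slc6a17 (-0.45), Slc6a7 (-0.38), Slc6a3 (-0.37), Slc36a3 (-0.37), the cationic amino acid transporter Slc7a1 (-0.34) and the glutamate transporter Slc1a1 (-0.33) were lower. The arrays of Slc1a5 read 1.17 and 0.45. Slc1a1, Slc36a3, Slc6a17, Slc6a3 and Slc7a13 were also called lower with anisomycin alone, and Slc7a1 in NaCl 2 h. Slc6a7 was below the pool on all 20 arrays that measured it (-0.46 to -0.11). These differences from the pool were therefore not limited to the inhibitor.

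The p38α-/- MEFs differed from wild type MEFs in a few transporters at all 4 conditions. Untreated p38α-/- MEFs had 6 of 37 transporters called against the wild type pool, 16.2% against 15% of all genes. The counts in the stressed groups were 9 of 42 for anisomycin (12.4% of all genes), 6 of 39 for TNFα (7.61%) and 11 of 45 for NaCl 2 h (18.0%). Slc38a4 and Slc6a8 were lower, and Slc1a3 was higher, in each of the 4 groups. To set the pool aside, the 3 stressed p38α-/- groups were compared with the same 3 wild type groups, a comparison added after the data were seen, and 4 of 30 transporters were called, against 8.81% of all genes.

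Slc38a4 was lower in p38α-/- MEFs (-0.87, SE 0.08, adjusted p = 1.51e-06), and the difference was on 1 probe. The probe A_52_P48569 read between -1.74 and -0.82 on the 8 p38α-/- arrays and between 0.24 and 2.89 on the 22 wild type arrays, with no overlap. In the comparison of stressed groups it differed by -1.89 (SE 0.14, adjusted p = 9.14e-08). The probe A_52_P12403 read between -0.53 and 0.00 in p38α-/- and between -0.55 and 1.00 in wild type MEFs, and differed by 0.16 (SE 0.10, adjusted p = 0.335). Both probes are assigned to the same RefSeq transcript.

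Slc1a3 was higher in p38α-/- MEFs by 0.58 (SE 0.11, adjusted p = 0.00240), again on 1 probe, and not the one that rose in NaCl. The cDNA clone probe differed by 1.14 (SE 0.19, adjusted p = 0.000903), with values between 0.25 and 1.34 on the 8 p38α-/- arrays and between -1.03 and 0.42 on the wild type arrays, which overlap. The RefSeq probe differed by 0.02 (adjusted p = 0.968).

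The dopamine transporter Slc6a3 (0.37, SE 0.09, adjusted p = 0.0206) and Slc1a1 (0.23, SE 0.06, adjusted p = 0.0235) were also called. The call of Slc6a3 was lost without wild type anisomycin, TNFα or NaCl 2 h replicate 1, or without p38α-/- anisomycin or NaCl 2 h replicate 2 (adjusted p 0.0570 to 0.0774). That of Slc1a1 was lost without wild type anisomycin or TNFα replicate 1, or without p38α-/- TNFα replicate 1 or NaCl 2 h replicate 2 (0.0590 to 0.0800). Wild type and p38α-/- arrays shared 1 scan day, and on it alone the differences were -0.92 for Slc38a4, 0.37 for Slc1a3, 0.17 for Slc6a3 and 0.24 for Slc1a1.

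Slc43a3 and Slc6a8 could not enter this comparison because some of their spots were flagged. Slc43a3, a member of the Slc43 family that carries purine bases, was lower in p38α-/- MEFs against the pool with anisomycin (-1.20, SE 0.13, adjusted p = 0.00276) and with TNFα (-0.95, SE 0.13, adjusted p = 0.00921). With flagged spots kept, its probe read between -1.41 and -0.94 on the 8 p38α-/- arrays and between -0.72 and 0.38 on the 22 wild type arrays, with no overlap. On these values the difference over the 3 stresses was -1.33 (SE 0.08, adjusted p = 5.84e-09). Slc6a8 read between -0.87 and -0.40 on the p38α-/- arrays and between -0.66 and 0.40 on the wild type arrays, with a difference of -0.46 (SE 0.09, adjusted p = 0.00234) when flagged spots were kept. Its lowest wild type values were those of NaCl 8 h, at -0.64 and -0.65 without and -0.43 and -0.66 with SB203580.

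**Figure D4:**
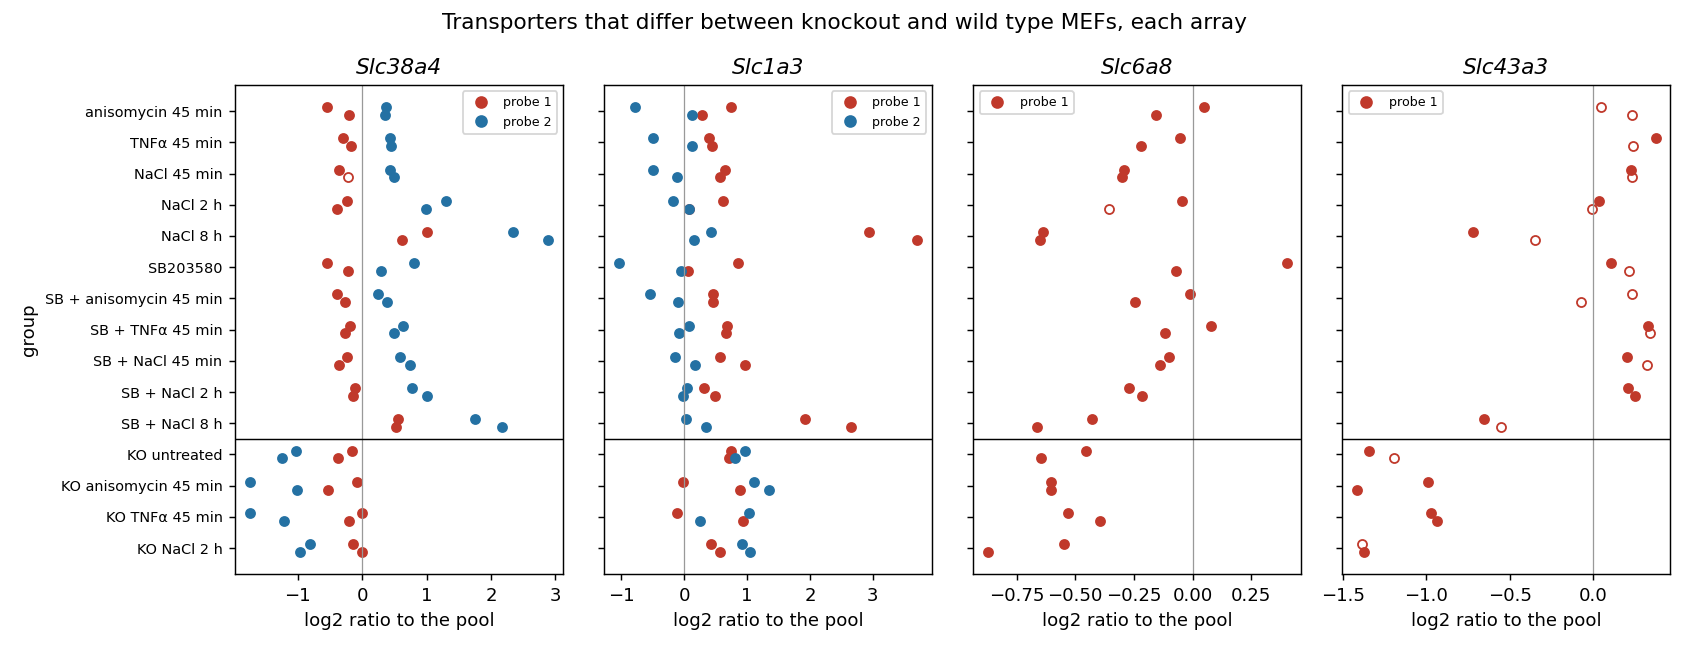
Log2 ratio to the pool (x axis) of each probe of Slc38a4, Slc1a3, Slc6a8 and Slc43a3 on each of the 30 arrays, by group (y axis); points below the black line are p38α-/- (KO) arrays and open points were flagged as outliers. Probe 2 of Slc38a4 and the probe of Slc43a3 separate all p38α-/- arrays from all wild type arrays.

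Stress responses within p38α-/- MEFs were not called for any transporter. Against untreated p38α-/- MEFs, limma called 0 of 37 for anisomycin, 0 of 36 for TNFα and 0 of 37 for NaCl 2 h, with 0, 0 and 5 at an unadjusted p under 0.05. Of all genes, 0.0847%, 0.0780% and 1.08% were called. The difference between the response in p38α-/- MEFs and that in wild type MEFs, for which the pool stands as the wild type baseline, was called for 0 of 37, 0 of 32 and 0 of 35 transporters, with 9, 8 and 5 at an unadjusted p under 0.05. Of all genes, 0.542%, 0.450% and 0.00% were called at the adjusted p. The share of all genes at the unadjusted p is not given, so the unadjusted counts in both comparisons show no excess. With flagged spots kept 9 such calls were made over the 3 stresses, and 7 with the authors' series matrix values. A shift from the pool present in every group cancels in the p38α-/- term but stays in the wild type term. It therefore cannot be told apart from a difference in response here. Slc43a1, below the pool on 29 of 30 arrays, had 0.69 for anisomycin, 0.79 for TNFα and 0.34 for NaCl 2 h. Averaged over the 3 stresses, p38α-/- minus wild type MEFs gave 0.03 for this gene. NaCl for 8 h was not given to p38α-/- MEFs, so the late rise cannot be compared between the lines.

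In wild type MEFs the 45 min treatments gave differences from the pool of less than 1 on the log2 scale among the called transporters. Anisomycin had 8 of 41 transporters called (12.0% of all genes), TNFα 6 of 34 (11.0%) and NaCl 45 min 3 of 32 (9.88%). NaCl 2 h had 6 of 42 (9.92%). In the inhibitor groups the counts were 6 of 40 for anisomycin (11.7% of all genes), 3 of 40 for TNFα (9.52%), 2 of 35 for NaCl 45 min (16.8%) and 6 of 43 for NaCl 2 h (17.1%). With TNFα, the neutral amino acid exchanger light chain Slc7a10 was higher by 0.91 (SE 0.20, adjusted p = 0.00686), on arrays that read 0.94 and 0.89. It was also higher with anisomycin (0.66, SE 0.20, adjusted p = 0.0371), on arrays at 0.98 and 0.33. Slc43a2 was higher with TNFα (0.49, SE 0.12, adjusted p = 0.0154), but it was above the pool on 29 of 30 arrays, with a median of 0.28. Slc38a5 was higher with TNFα (0.38), and Slc43a1 (-0.55), Slc6a3 (-0.54) and Slc36a3 (-0.29) were lower. The lowest value with anisomycin was that of Slc7a8 (-0.73, SE 0.10, adjusted p = 0.00138), followed by Slc6a3 (-0.51), Slc36a3 (-0.46), Slc6a17 (-0.44) and Slc7a13 (-0.44).

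The noradrenaline transporter Slc6a2 was the only transporter called higher in NaCl 45 min (0.95, SE 0.21, adjusted p = 0.00859), on arrays that read 0.89 and 1.00, while Slc7a8 (-0.67) and Slc7a13 (-0.49) were lower. Slc6a2 was also called in SB203580 with NaCl 2 h (1.23, adjusted p = 0.000846) and in p38α-/- MEFs with NaCl 2 h (1.06, adjusted p = 0.00206) and anisomycin (0.69, adjusted p = 0.0388). It was not called in wild type NaCl 2 h (0.51, adjusted p = 0.135) or NaCl 8 h (0.46, adjusted p = 0.132), and its NaCl 8 h arrays read 0.92 and 0.00. Slc6a2 was above the pool on 27 of 30 arrays, with a median of 0.51, so its values against the pool are not particular to NaCl. The neutral amino acid transporter Slc6a15 was higher in SB203580 with anisomycin (0.47) and lower in p38α-/- MEFs with anisomycin (-0.55) and NaCl 2 h (-0.60). One of its probes was in neither channel well above background on 29 arrays, and the other was in both on only 15. These values therefore lie near background.

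Several of the calls against the pool were not particular to a treatment. Slc7a4 was above the pool on all 25 arrays that measured it (0.26 to 1.24) and on all 30 with flagged spots kept. Its NaCl 2 h arrays read 0.88 and 0.85 in wild type MEFs, 0.73 and 1.24 with SB203580, and 0.78 and 0.70 in p38α-/- MEFs. No other array read above 0.70. The difference from untreated p38α-/- MEFs (0.28, limma adjusted p = 0.563) and that from 2 h to 8 h with SB203580 (-0.50, adjusted p = 0.0644) were not called. What lies behind the NaCl 2 h values was not tested. Slc7a8, a light chain of large neutral amino acid exchange, was below the pool on all 22 arrays that measured it (-0.84 to -0.25). Slc43a1 was below it on 29 of 30 arrays, with a median of -0.44. Untreated p38α-/- arrays showed these shifts too, at 0.53 and 0.39 for Slc7a4, -0.77 and -0.39 for Slc43a1, and -0.40 for Slc7a8 on the array that measured it. A dye bias and a peculiarity of the pool cannot be told apart in these common shifts.

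The heavy chain Slc3a2, which most Slc7 light chains need to reach the membrane, showed this most clearly. With flagged spots kept, 1 of its probes (A_51_P472901) was above the pool on all 30 arrays (0.10 to 1.18) and the other (A_52_P245648) below it on all 30 (-1.78 to -0.47). Both are assigned to the same RefSeq transcript, and 32 of their 60 values were flagged. No direction is therefore given for Slc3a2. On the first probe the anisomycin arrays read 1.18 and 0.86 and the NaCl 8 h arrays 0.33 and 0.23.

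**Figure D5:**
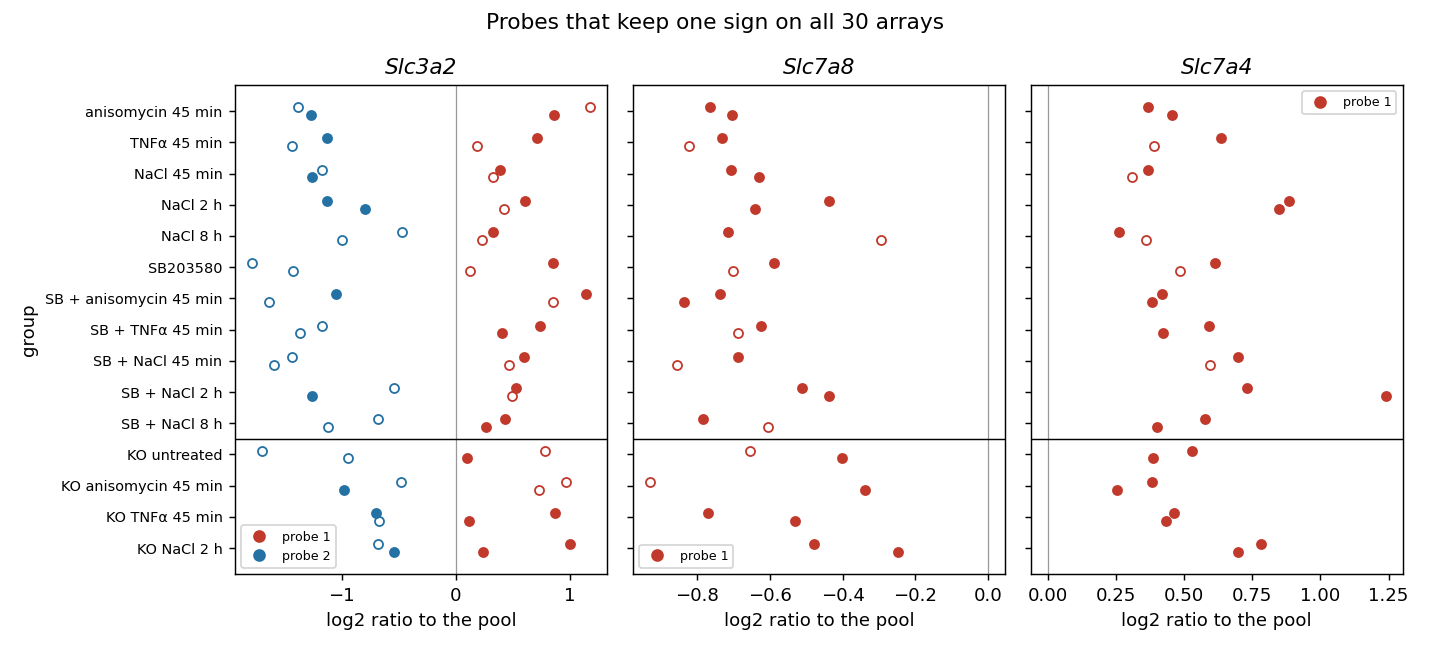
Log2 ratio to the pool (x axis) of the probes of Slc3a2, Slc7a8 and Slc7a4 on each of the 30 arrays, by group (y axis), with open points for values flagged as outliers and the black line above the p38α-/- groups. Each probe stays on 1 side of 0 on all 30 arrays, and the probes of Slc3a2 lie on opposite sides.

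The other transporters named by role had few calls or none. Among the glutamate transporters, Slc1a2 lay between -0.23 and 0.16 over the arrays and Slc1a1 between -0.46 and 0.16. The neutral amino acid exchanger Slc1a4 ranged from -0.37 to 1.03 with no call. Of the large neutral amino acid light chains, Slc7a5 read between -0.41 and 0.47 with flagged spots kept, and Slc7a7, which exchanges cationic amino acids, lay between -0.29 and 0.34 with no call. The cationic amino acid transporters Slc7a1, Slc7a2 and Slc7a3 lay between -0.50 and 0.24, between -0.10 and 0.36 and between -0.12 and 0.20, and Slc7a1 was called lower in NaCl 2 h (-0.38, adjusted p = 0.0233). The cystine light chain Slc7a11 ranged from -0.28 to 0.80 with no call. Of its 3 probes, 2 were well above background in both channels on only 5 and 14 arrays, and in neither on 6 and 2. The glycine transporter Slc6a9 lay between -0.61 and 0.24 on 12 arrays, and the proton-coupled Slc36a4 between -0.15 and 0.40. Slc36a4 was called higher with SB203580 and NaCl 2 h (0.39, SE 0.10, adjusted p = 0.0115) and in p38α-/- MEFs with NaCl 2 h (0.31, SE 0.10, adjusted p = 0.0325).

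Other genes of amino acid supply were described from 3 lists. Of the targets of the amino acid response and its factor Atf4, 2 of 11 tested were called from 2 h to 8 h in NaCl (18.2%, against 7.81% of all genes). The transcription factor Cebpg rose by 1.05 (SE 0.16, adjusted p = 0.000508) and the lipoprotein receptor Vldlr fell by 0.64 (SE 0.18, adjusted p = 0.0312). The median of the list was 0.25, against -0.01 over all genes. Atf4, Asns, Ddit3 and Atf5 were not measured on all 4 arrays. The aminoacyl-tRNA synthetases, which charge tRNAs with amino acids, were listed under 38 names, with older and newer names of the same genes among them. Of these names 17 were found on the array. For them limma called 0 of 9 tested, with 1 at an unadjusted p under 0.05 and a median of -0.02. Of 31 listed names of genes that signal amino acids to the kinase mTORC1, some of them synonyms, 14 were found. For these limma called 0 of 10 tested, with 1 at an unadjusted p under 0.05 and a median of -0.05. With SB203580 the counts from 2 h to 8 h were 1 of 13, 0 of 9 and 1 of 9 in this order, against 7.32% of all genes, Cebpg in the first list and Tsc1, which restrains mTORC1, in the last. In p38α-/- minus wild type MEFs they were 0 of 9, 0 of 5 and 0 of 6 by limma, with 1, 0 and 1 at an unadjusted p under 0.05, against 8.81% of all genes.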

How the data were processed

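RNA of 30 MEF samples was hybridised by the authors to 2-colour Agilent 44K arrays. The deposited files hold spot intensities and log10 ratios of Cy5 to Cy3 from Agilent Feature Extraction (version 9.1 per the labels, 8.1.1.1 per the file headers), with spatial detrending, linear and LOWESS dye normalization and no background subtraction. The authors' deposited series matrix holds log2 values of the same arrays, centred near 0 with blanks, whose exact steps are not given in the sources used here. It served as an alternative.

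Log10 ratios were converted to log2. Control spots and spots flagged as non-uniform or population outliers were left out, spots were averaged per probe and probes per gene. A model with 15 group means and moderated variances (limma 3.58.1 in R 4.3.3) was fitted to all genes. A comparison was tested only where all arrays of its groups measured the gene, and a gene was called at a Benjamini-Hochberg adjusted p under 0.05 over all genes tested. The script was tested on simulated data. The methods used no test and a mean of at least 2.5-fold, which was counted too. Arrays have no read depth, and 2 arrays a group limit the precision.

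The named genes were transporters fixed by role, plus in each comparison the called transporters, at most the 8 with the largest difference. One member is counted but not reported here by name. The members and lists were chosen with earlier results of these data known. Arrays were scanned on 4 days. All replicates 1 of wild type were scanned on 1 day, replicates 2 of wild type with replicates 1 of p38α-/- on another, and replicates 2 of p38α-/- on later days, the TNFα array apart from the rest. Same-numbered arrays deviated together (correlation over 0.1) for all 55 pairings of wild type groups and all 6 of p38α-/- groups, against 6 of 44 across genotypes, so the replicate number was used as a block within a genotype as an alternative. Other alternatives were normexp with loess (offset 50), the brightest probe, spots well above background only, median centring, arrays of 1 genotype, flagged spots kept, each probe alone and leaving out each array.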

Additional observations from a re-analysis of the deposited data

Results flagged for a closer look

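The difference between 2 times in NaCl was itself tested and passed for these genes. Without the inhibitor, Slc1a3 stood at 0.15 at 2 h and 1.81 at 8 h, a difference of 1.66 (limma adjusted p = 4.63e-05), which was 1.46 on the first and 1.85 on the second scan day. Slc38a4 stood at 0.41 and 1.71, a difference of 1.30 (1.15 and 1.46 by scan day). Slc7a6 stood at 0.01 and 1.08, a difference of 1.06 (0.52 and 1.61 by scan day), and Slc43a2 at 0.18 and 0.76, a difference of 0.58 (0.69 and 0.48 by scan day). With SB203580, Slc1a3 differed by 1.04 (0.80 and 1.27 by scan day), Slc38a4 by 0.87 (0.83 and 0.92) and Slc1a5 by -1.02 (-1.03 and -1.01). The part of array quality, dye or time in culture in these differences was not tested. Groups of 2 arrays were too small for a search for single arrays that stand apart.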

How the results depend on the processing

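With flagged spots kept, 189 of 720 tests against the pool passed in place of 98 of 581, 14 transporters in SB203580 and NaCl 8 h in place of 9, 7 from 2 h to 8 h in place of 4, 5 with SB203580 in place of 3, and 9 for the difference between p38α-/- and wild type responses in place of 0. With the authors' series matrix the counts were 176, 14, 10, 5 and 7, and 13 in NaCl 8 h in place of 8. Both settings test more genes. Normexp with loess called 1 transporter, Slc7a6, for SB203580 minus none in place of 0. The brightest probe alone called 2 of 21 in p38α-/- minus wild type MEFs in place of 4 of 30, without Slc1a3. The 2.5-fold mean, which uses no test, gave 2 against the pool, both in NaCl 8 h, 0 with SB203580 and NaCl 8 h, 1 from 2 h to 8 h, 0 with SB203580 and 0 for p38α-/- minus wild type. Arrays of 1 genotype alone gave 76 calls against the pool and 3 from 2 h to 8 h, without Slc43a2, and 26 of 108 named values lost their call, 21 of them p38α-/- values against the pool. The replicate block within a genotype changed the call of none of 112 named values, and the counts were 132 against the pool, 13 in SB203580 with NaCl 8 h, 4 from 2 h to 8 h, 4 with SB203580 and 5 for p38α-/- minus wild type. Leaving out 1 array gave 90 to 100 calls against the pool, 7 to 9 in NaCl 8 h, 4 to 8 with SB203580 and NaCl 8 h (4 without replicate 1), 0 to 1 for SB203580 minus none (1 without NaCl 8 h replicate 1), 3 to 4 from 2 h to 8 h, 2 to 4 with SB203580 and 2 to 5 for p38α-/- minus wild type (2 without replicate 1 of wild type anisomycin or TNFα, or replicate 2 of p38α-/- NaCl 2 h). In these refits 141 of 284 named values, counted once per array left out, lost their call. An array left out belongs to only 1 of the 15 groups, so the count summed over groups can hide such losses. One probe of Slc38a4 had the opposite sign to its gene mean in NaCl 2 h (-0.32), SB203580 with NaCl 2 h (-0.13) and p38α-/- minus wild type (0.16). The cause was not tested.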
